A study of Danio rerio with 6 samples.

Results

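The genes described here are the potassium channel genes, taken as every row of the deposited expression table whose gene name starts with kcn in upper or lower case. The rule found 132 of 30689 gene rows. Of these, 79 had at least 1 FPKM in 2 libraries and are described, 17 of the 26 kcnj rows and 62 of the 106 other rows. FPKM counts sequenced fragments scaled to transcript length and to the mapped fragments of the library, so it is a level per length. The 53 rows left out reached at most 1.13 FPKM (KCNA2 (2 of 2)), and 4 of them were listed at 0 in all 6 libraries. The line between the sets was narrow, since kcnh3, left out, had 1 library at 1.11 FPKM, while kcnk10a was kept with its highest library at 1.15.

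Potassium channels let potassium cross the membrane and set the resting potential of neurons and glia. Müller glia (MG), the radial glia of the retina, are known in mammals for a large potassium conductance carried by inward rectifier (Kir, kcnj) channels, above all KCNJ10, with which they take up potassium released by active neurons and pass it on to vitreous and vessels. The other kcn genes encode voltage-gated pore subunits (kcna to kcnd, kcnh, kcnq), silent subunits that work only inside a complex (kcnf, kcng, kcnv), tandem pore leak channels (kcnk), calcium-activated channels (kcnma, kcnn), and auxiliary proteins (kcnip, kcnab, kcne). In zebrafish, MG return to the cell cycle after a retinal injury.

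RNA was sequenced from GFP+ cells sorted by FACS from adult zebrafish retinas, in 6 libraries of 3 groups. The uninjured group had 2 libraries, the injured group had 2 libraries from retinas taken 2 days post injury (dpi) after a needle poke, and the knockdown group had 2 libraries from retinas injured the same way that also received a morpholino against apobec2a and apobec2b. All 6 libraries carry the transgene gfap:GFP in their labels, in which the gfap promoter marks MG. The study's text ties injured cells to another GFP reporter line, driven by a fragment of the tuba1a promoter, and the columns of the injured group name a control morpholino. A change of reporter line or a control morpholino therefore cannot be told apart from the injury. Nothing in the labels says that the libraries of a group came from separate fish, so p-values measure the spread between libraries, which may be technical. Within each group, libraries are named a and b after the index of their columns, which matches no replicate number in the labels, and pairs of values are given in that order. Knockdown RNA was no check of the labels, because apobec2a was listed at 0.15 to 0.51 FPKM in all 6 libraries, and apobec2b was not analysed here.

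RNA of other retinal cell types was present in the sorted cells. Of all genes tested, 29.6% were called higher after injury and 19.0% lower. The share lower was 28.5% after quantile normalization and 22.9% after median of ratios scaling. Over 11 MG marker genes the summed level was 2711 to 2871 FPKM in uninjured, 3580 to 3839 in injured and 2982 to 2991 in knockdown libraries. Of these 11, 8 were higher and 3 lower after injury. The sum was led by few genes, which moved in opposite directions. After injury apoeb went from 571 and 631 to 1478 and 1762 FPKM, and fabp7a from 170 and 184 to 1156 and 1080 FPKM. By contrast glula fell from 1196 and 1280 to 466 and 463 FPKM, so the sum does not give the direction of the list. Rod markers summed to 12710 to 13017, 4578 to 6393 and 4622 to 4799 FPKM in the same order, with 7 of 8 lower after injury and nr2e3 higher. Cone markers, led by opn1sw1, summed to 2425 to 2555, 1782 to 1898 and 723 to 968 FPKM. Of 7 tested, 3 were lower after injury and 2 higher (opn1sw2 and opn1lw1). Markers of amacrine, horizontal and ganglion cells summed to 2253 to 2341, 1484 to 1545 and 1568 to 1594 FPKM, with 6 of 11 tested lower after injury and 1 higher. General synapse and neuron markers summed to 471 to 526, 446 to 508 and 458.5 to 473 FPKM. Of 5 tested, 2 were higher after injury (stmn2a and stmn2b) and 1 was lower. Bipolar markers, led by cabp5a, summed to 2437 to 2514, 2684 to 2779 and 3642 to 4005 FPKM, with 0 of 6 called after injury but 4 of 6 lower after quantile normalization and 2 of 6 after median of ratios scaling. Microglial markers summed to 63.6 to 72.7, 244 to 274 and 19.4 to 31.1 FPKM, and pigment epithelium markers to 38.2 to 41.2, 143 to 163 and 79.3 to 112 FPKM. The pigment epithelium list shares rlbp1b with the MG list, and in uninjured libraries rlbp1b alone was at 28.9 and 33.7 FPKM. Endothelium and pericyte markers, led by rgs5a, summed to 86.7 to 95.0, 29.4 to 36.2 and 42.4 to 47.5 FPKM, with 4 of 5 tested lower after injury. Red blood cell markers summed to 41.3 to 49.7, 144 to 362 and 127 to 129 FPKM, nearly all of it hbaa1, which was higher after injury. None of these lists had a member at 0 in all 6 libraries. In such bulk samples, fewer cells of a type and less RNA per cell cannot be told apart. The a libraries had a higher median among listed 5S rRNA rows (19.7 to 26.3 FPKM) than the b libraries (0.51 to 1.01 FPKM).

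Summed over all 132 rows, kcn RNA was at 1212 and 1211 FPKM in uninjured libraries a and b, at 718 and 754 FPKM in injured libraries, and at 850 and 882 FPKM in knockdown libraries. The 3 groups did not overlap, with uninjured libraries highest and injured libraries lowest. The levels were uneven, since 51 of the 79 rows had a mean under 5 FPKM and 16 had a mean of 10 FPKM or more. The rows kcnip3l, kcnv2a, kcnb2 and kcnj11l together held 51.5% and 51.9% of the kcn FPKM in uninjured libraries, 48.0% and 47.5% in injured libraries, and 48.8% and 45.7% in knockdown libraries. The kcnj rows held 12.4% to 12.8% of the kcn FPKM in every library, so their share was nearly level across the groups, while their sum (over the rows described) was 153 and 149 FPKM before injury, 88.7 and 94.8 after it and 107 and 111 with the knockdown. Silent subunits summed to 258 and 269 FPKM before injury, to 105 and 117 after it and to 120 and 117 with the knockdown, and Kv1 to Kv4 pores to 213 and 217, 99.1 and 105, and 117 and 131 FPKM. Auxiliary rows were the largest family by level, with 417 and 393 FPKM before injury, 301 in both libraries after it and 357 and 352 with the knockdown. In each of these families uninjured libraries were above both injured groups.

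Of the inward rectifiers known from glia, KCNJ10 (1 of 2) fell after injury, KCNJ10 (2 of 2) was lower but passed the filter of 1 FPKM in 2 libraries only through the uninjured group, and the KCNJ2 row tested was not called. These rectifiers are the rows named KCNJ10, KCNJ2 and KCNJ16 in the table, taken by name, and none exceeded 6.36 FPKM. KCNJ10 (1 of 2), on chromosome 7 (7388887 to 7416377), had 6.36 and 5.67 FPKM in uninjured libraries, 2.11 and 2.55 in injured ones and 1.76 and 2.20 in knockdown ones. Both uninjured libraries were above all 4 others, and the injured mean was 0.387 of the uninjured mean. The log2 fold change after injury was −1.08 ± 0.12 (SE, n = 2 against 2), with a limma adjusted p of 0.00379. Its locus overlaps a 5S rRNA row, so reads may be shared. KCNJ10 (2 of 2), on chromosome 2 (58822160 to 58829594), stood at 2.35 and 3.98 FPKM before injury, at 0.37 and 0.54 after it, and at 0.60 and 0.75 after it with the knockdown. The groups before and after injury did not overlap here either, with a log2 fold change of −1.49 ± 0.22 (limma adjusted p = 0.00784, and 0.0168 in a fit of all rows with no filter). A row let in by the group where it is high had to differ, so these p-values are a description. The call was lost without injured library a (limma adjusted p = 0.0669) or without injured library b (limma adjusted p = 0.0555). In all 6 libraries KCNJ10 (1 of 2) was above KCNJ10 (2 of 2) in FPKM, by 1.42 times in uninjured library b and by 5.70 times in injured library a at the extremes.

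KCNJ2 (1 of 2), another rectifier of mammalian MG, read 3.14 and 3.07 FPKM (uninjured), 2.78 and 2.97 FPKM (injured) and 2.97 and 3.05 FPKM (knockdown). Its levels lay within a narrow range, and the injury difference of −0.08 ± 0.09 in log2 was not called (limma adjusted p = 0.501). KCNJ2 (2 of 2) was listed at 0.41 to 1.75 FPKM, with groups that overlapped. KCNJ16, which in mammals joins KCNJ10 in a mixed channel, was listed at 0 in all 6 libraries. Of the 11 MG markers tested, 3 fell after injury and 8 rose. Those that fell were glula (glutamine synthetase), rlbp1a and cahz, with log2 fold changes of −1.41, −2.00 and −1.12. Those that rose included gfap and vim, by 1.49 and 2.04 (limma adjusted p = 0.00134 and 0.000793). They also included glulb and rlbp1b, whose names pair with glula and rlbp1a, by 0.44 and 0.81 (limma adjusted p = 0.0433 and 0.0108).

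**Figure D1:**
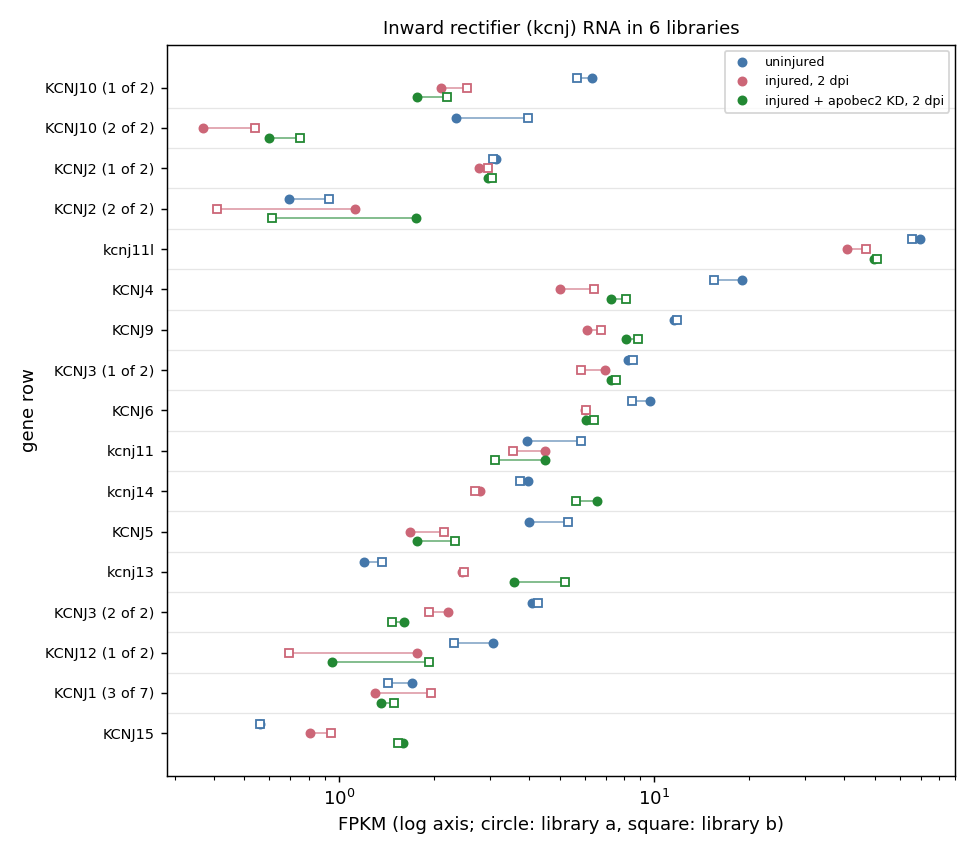
FPKM of the 17 kcnj rows described, on a log axis, with library a as a circle and library b as a square and the 3 groups in colours. The 4 KCNJ10 and KCNJ2 rows are on top, where uninjured libraries of both KCNJ10 rows lie to the right of the others, and further down kcnj13 and kcnj14 have their highest values in knockdown libraries.

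The other Kir2 genes, known from neurons and muscle, differed among themselves. KCNJ4 (Kir2.3), on chromosome 3 (531659 to 533069), had 19.0 and 15.5 FPKM in uninjured libraries, 5.0 and 6.42 in injured ones and 7.27 and 8.12 in knockdown ones. The 3 groups did not overlap, and the level fell after injury to 0.331 of the uninjured mean (log2 fold change −1.44 ± 0.17, limma adjusted p = 0.00408). KCNJ12 (1 of 2), the Kir2.2 gene, read 3.07 and 2.32 FPKM (uninjured) and 1.77 and 0.69 FPKM (injured), a difference that was not called (limma adjusted p = 0.0809). The gene kcnj14 (Kir2.4), on chromosome 16, read 3.98 and 3.74 FPKM (uninjured) and 2.79 and 2.69 FPKM (injured), with 6.58 and 5.63 FPKM in knockdown libraries. Its 3 groups did not overlap, with knockdown libraries highest. The log2 fold change after injury was −0.38 ± 0.09 (limma adjusted p = 0.0321), a call that was lost in each of the 4 fits that left out 1 library (limma adjusted p 0.0878 to 0.119).

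Genes of G protein-gated rectifiers, which slow the firing of neurons when a receptor is activated, were called lower after injury in 4 of the 5 rows measured. A count of 5 rows is too small to set against the 19.0% of all genes called lower. KCNJ9 stood at 11.6 and 11.8 FPKM before injury, at 6.11 and 6.78 after it, and at 8.10 and 8.87 after it with the knockdown, and its groups did not overlap (log2 fold change −0.77 ± 0.10, limma adjusted p = 0.00572). KCNJ5 fell by 0.95 in log2 (limma adjusted p = 0.0118), from 4.01 and 5.31 FPKM to 1.68 and 2.15 FPKM. KCNJ3 (2 of 2) fell by 0.75 in log2 (limma adjusted p = 0.00639), from 4.09 and 4.26 FPKM to 2.22 and 1.93 FPKM. All uninjured libraries of these rows were above all injured ones. KCNJ6, on chromosome 10, fell by 0.52 in log2 (limma adjusted p = 0.0195), from 9.70 and 8.49 FPKM to 6.0 and 6.07 FPKM, but its locus overlaps 8 other rows, so its level is uncertain. KCNJ3 (1 of 2) read 8.25 and 8.58 FPKM (uninjured) and 6.99 and 5.86 FPKM (injured), which did not pass the test (limma adjusted p = 0.0714). Without injured library a or b the calls of KCNJ5 (limma adjusted p 0.0764 and 0.052) and KCNJ6 (0.0931 and 0.0867) were lost, and that of KCNJ6 also without uninjured library a (0.0783).

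The most abundant rectifier was kcnj11l, named after kcnj11, which encodes the pore of the ATP-sensitive channel that closes when the cell is rich in ATP. It read 69.5 and 65.7 FPKM (uninjured), 40.8 and 46.8 FPKM (injured) and 49.6 and 50.7 FPKM (knockdown). The groups did not overlap, and the level fell after injury (log2 fold change −0.62 ± 0.12, limma adjusted p = 0.0144), although the call was lost without uninjured library a or b or injured library a (limma adjusted p 0.0716, 0.0588 and 0.0681). The row kcnj11 itself was at 3.12 to 5.84 FPKM over the 6 libraries and was not called. RNA of both sulfonylurea receptors measured, the regulatory partners of this pore, was called lower after injury. That count is too small to set against the 19.0% of all genes called lower. How either call fares without 1 library is not given here. The level of abcc9 went from 10.1 and 10.7 FPKM to 6.16 and 4.55 FPKM (log2 fold change −0.85, limma adjusted p = 0.0139), and that of abcc8 fell by 0.36 in log2 (limma adjusted p = 0.0408). Endothelium and pericyte markers moved the same way, with 4 of 5 lower, and the part of such cells in the abcc9 level was not tested.

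One rectifier rose after injury. The gene kcnj13 (Kir7.1), known in mammals as a channel of the pigment epithelium, had 1.20 and 1.37 FPKM in uninjured libraries, 2.45 and 2.49 in injured ones and 3.58 and 5.22 in knockdown ones. The groups did not overlap and followed the order uninjured, injured, knockdown. The step from injured to knockdown libraries was not called (log2 fold change 0.62 ± 0.17, limma adjusted p = 0.0979). The log2 fold change after injury was 0.60 ± 0.10 (limma adjusted p = 0.01), and the call was lost without uninjured library a or injured library a or b (limma adjusted p 0.0521, 0.0578 and 0.0587). All 6 pigment epithelium markers tested also rose after injury, among them rlbp1b, which is on the MG list too. The summed level of the pigment epithelium list was highest in injured libraries (143 to 163 FPKM), not in knockdown libraries (79.3 to 112 FPKM). The part of such cells in the kcnj13 level was not tested. KCNJ15 (Kir4.2) was at 0.56 FPKM in both uninjured libraries, at 0.81 and 0.94 in injured ones and at 1.59 and 1.54 in knockdown ones, in the same order, and was too low to be tested for injury. Between its knockdown and injured libraries the difference was not called (limma adjusted p = 0.0668). KCNJ1 (3 of 7), from the family of the renal Kir1 channel, was at 1.3 to 1.95 FPKM with no call.

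Across all kcn rows, the change after injury was mostly downward. Of the 73 rows that passed the filter of 1 FPKM in 2 of the 4 libraries, 34 were lower (46.6%), against 19.0% of the 16850 genes tested, and 3 were higher (4.11%), against 29.6% of all genes. The rows called higher were kcnj13, kcnk10a and KCNG2. The median log2 fold change was −0.39 over the kcn rows and 0.08 over all genes. Rows were filtered on the level in either group, and a row that passed through the group where it was high had to differ, so these counts describe the rows and test nothing. Of the 34 lower rows, 4 reached 1 FPKM only in the uninjured group (KCNJ10 (2 of 2), kcnf1b, kcnk12l and kcnk5a), and of the 3 higher rows 1 did so only in the injured group (kcnk10a). By family, 9 of 15 kcnj rows were lower, 8 of 16 Kv1 to Kv4 rows, 4 of 7 silent subunits, 3 of 6 kcnh rows, 1 of 6 kcnq rows, 3 of 8 kcnk rows, 1 of 4 calcium-activated rows and 5 of 11 auxiliary rows. Among rows whose locus overlaps no other gene row, 27 of 58 were lower. Quantile normalization moved the median of all genes by −0.19 in log2 and gave 46 kcn rows lower and 1 higher, with 44.1% of all calls higher in place of 60.9%. Leaving out 1 library gave 18 lower rows without uninjured library a, 20 without uninjured library b, 17 without injured library a and 18 without injured library b, or 23.3% to 27.4% of the rows, while the share of all genes called lower was 8.41% to 10.5%. In each of these fits the filter was still set on all 4 libraries. Across them the log2 fold change was −1.17 to −0.98 for KCNJ10 (1 of 2), −1.60 to −1.29 for KCNJ4 and −0.84 to −0.71 for KCNJ9. It was −0.82 to −0.68 for KCNJ3 (2 of 2), −1.97 to −1.69 for kcnb2 and −1.69 to −1.55 for kcnv2a.

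**Figure D2:**
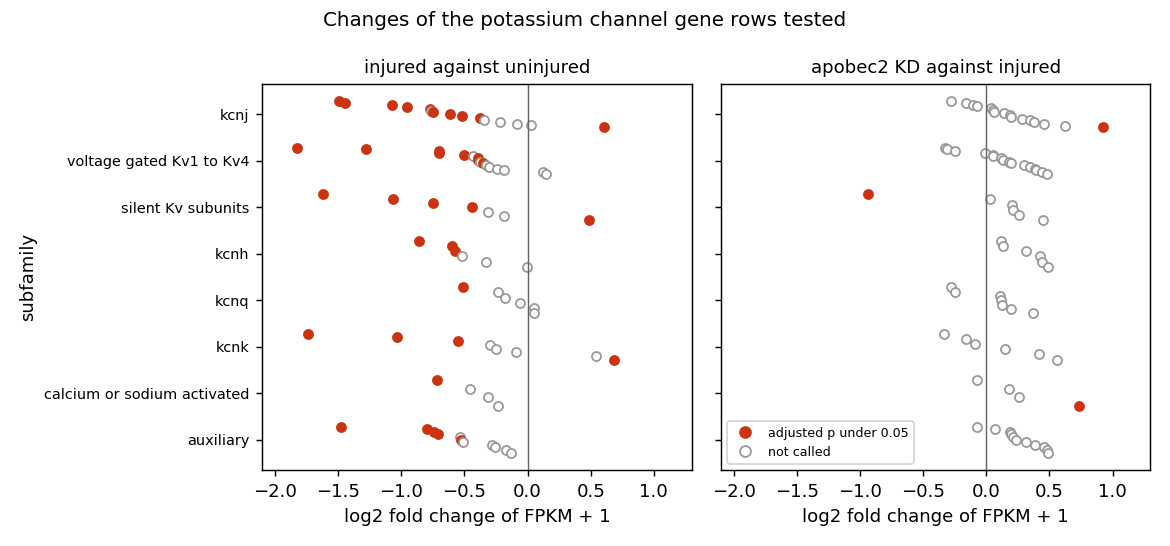
Log2 fold change of FPKM + 1 for each kcn row tested, by family, for injured against uninjured (left) and knockdown against injured (right), where filled red points have an adjusted p under 0.05. On the left 34 rows are called to the left of 0 and 3 to the right, and on the right 3 rows are called in all.

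Among the 16 rows with a mean of 10 FPKM or more, kcnb2 and kcnv2a fell most after injury. The gene kcnb2 encodes a Kv2 delayed rectifier, and kcnv2a a silent subunit (Kv8) which in mammals assembles with Kv2 pores in photoreceptors and shapes their response to light. On chromosome 2 (29859810 to 29892301), kcnb2 stood at 100.01 and 109 FPKM before injury, at 25.9 and 31.7 after it, and at 39.2 and 41.7 after it with the knockdown. On chromosome 10 (15339384 to 15342725), kcnv2a read 187 and 206 FPKM (uninjured), 61.7 and 64.5 FPKM (injured) and 75.4 and 70.8 FPKM (knockdown). Both rows had 3 groups without overlap, with injured libraries lowest. After injury kcnb2 fell by 1.83 ± 0.14 in log2, to 0.276 of the uninjured mean (limma adjusted p = 0.00161), and kcnv2a by 1.62 ± 0.10, to 0.321 (limma adjusted p = 0.00124). Both calls held in each fit without 1 library. The kcnv2a level was 1.70 to 2.39 times that of kcnb2 in every library. Rod markers were lower in 7 of 8 tested, for example gnat1 (log2 fold change −1.69) and pde6a (−2.27), and nr2e3 was higher (0.61). Of 7 cone markers tested, 3 were lower after injury and 2 higher. Of 11 amacrine, horizontal and ganglion cell markers tested, 6 were lower and 1 higher. Among all genes, 19.0% were lower and 29.6% higher. The part of RNA from rods or these other cells in the kcn levels was not tested.

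The second copy, kcnv2b, had 26.3 and 24.4 FPKM in uninjured libraries, 12.8 and 16.8 in injured ones and 7.44 and 6.96 in knockdown ones. Its 3 groups did not overlap, but here knockdown libraries were lowest. The fall after injury was 0.75 ± 0.16 in log2 (limma adjusted p = 0.0197), and it was lost without uninjured library a or b or injured library a (limma adjusted p 0.0933, 0.0746 and 0.0642). Another silent subunit, KCNV1, fell from 3.09 and 2.60 FPKM to 0.66 and 1.03 FPKM (log2 fold change −1.06 ± 0.15, limma adjusted p = 0.00655). KCNG2, a silent partner of Kv2 pores, rose from 1.45 and 1.17 FPKM to 2.19 and 2.26 FPKM (log2 fold change 0.48, limma adjusted p = 0.0239). That rise was not called after quantile normalization (limma adjusted p = 0.1), nor without uninjured library b or injured library a or b (0.0935, 0.0969 and 0.105).

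Channels of the A-type current are built from Kv4 pores (kcnd) with KChIP proteins (kcnip). Their RNA was called lower after injury in all 3 kcnd rows and in 3 of 6 kcnip rows tested. Both counts are too small to set against the 19.0% of all genes called lower. The pore gene kcnd3 stood at 41.3 and 40.8 FPKM before injury, at 23.9 and 25.8 after it, and at 26.5 and 28.2 after it with the knockdown (injury log2 fold change −0.70 ± 0.10, limma adjusted p = 0.00664). All uninjured libraries were above the rest, and the locus of kcnd3 overlaps 1 other row. The gene kcnd1 fell from 11.7 and 7.77 FPKM to 4.11 and 2.71 FPKM (log2 fold change −1.28, limma adjusted p = 0.0173), and kcnd2 by 0.39 in log2 (limma adjusted p = 0.0359). The call of kcnd1 was lost without uninjured library a or injured library a or b (limma adjusted p 0.0661, 0.0553 and 0.0929), and that of kcnd2 in each fit without 1 library (0.0811 to 0.137).

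Of the KChIP genes, kcnip1b read 42.8 and 43.8 FPKM (uninjured), 16.8 and 13.2 FPKM (injured) and 21.8 and 21.0 FPKM (knockdown), 3 groups without overlap (injury log2 fold change −1.48 ± 0.14, limma adjusted p = 0.00268). The gene kcnip3 fell from 39.9 and 36.7 FPKM to 24.3 and 21.8 FPKM (log2 fold change −0.71, limma adjusted p = 0.00908), a call lost without uninjured library a or injured library b (limma adjusted p 0.0509 and 0.0551). The highest kcn row of all, kcnip3l, was not called. It had 268 and 248 FPKM in uninjured libraries, 216 and 215 in injured ones and 251 and 240 in knockdown ones, with injured libraries lowest and the other groups overlapping. Its injury difference of −0.26 ± 0.10 in log2 (limma adjusted p = 0.0945) passed the test under quantile normalization, median of ratios scaling and a trend in the prior variance (limma adjusted p 0.00764, 0.0464 and 0.0368). Its share of the kcn FPKM was 20.4% to 22.1% in uninjured, 28.5% to 30.1% in injured and 27.2% to 29.5% in knockdown libraries. The loci of kcnip3 and kcnip3l each overlap 1 other row. The dpp genes, whose products also ride on Kv4 pores, had 2 of 3 lower after injury, dpp6a and dpp6b, a count too small to set against the 19.0% of all genes.

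Calcium-activated BK channels are encoded by 2 rows. The row kcnma1a stood at 42.4 and 49.5 FPKM before injury, at 35.0 and 43.2 after it, and at 38.1 and 51.4 after it with the knockdown, with overlap between all groups and no call. The row kcnma1b read 30.3 and 36.0 FPKM (uninjured), 19.6 and 20.0 FPKM (injured) and 30.3 and 37.1 FPKM (knockdown). The injured libraries of kcnma1b lay below all others, and those of the other groups overlapped. Its level fell after injury by 0.71 ± 0.12 in log2 (limma adjusted p = 0.0115), a call lost without injured library a or b (limma adjusted p 0.0733 and 0.0672).

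Leak channels of the tandem pore family were low throughout, and none exceeded 6.27 FPKM. The gene kcnk1a (TWIK) fell from 5.92 and 6.27 FPKM to 2.40 and 2.55 FPKM after injury (log2 fold change −1.03 ± 0.10, limma adjusted p = 0.0025), with 1.87 and 2.73 FPKM in knockdown libraries. The gene kcnk5a (TASK) had 4.25 and 5.57 FPKM in uninjured libraries, 0.88 and 0.65 in injured ones and 0.05 and 0.13 in knockdown ones. Its groups did not overlap, and the injured mean was 0.156 of the uninjured mean (log2 fold change −1.74 ± 0.16, limma adjusted p = 0.00229, and 0.00544 with no filter, given as a description because only uninjured libraries reached 1 FPKM). The difference between injured and knockdown libraries was not tested, because kcnk5a was under 1 FPKM in all 4. The gene kcnk10a (TREK), a channel gated by stretch and lipids, rose from 0.22 and 0.38 FPKM to 1.15 and 1.02 FPKM (log2 fold change 0.68 ± 0.11, limma adjusted p = 0.0105, and 0.0161 with no filter). It passed the filter only through injured libraries, so its p-values are a description too. That rise was not called after quantile normalization (limma adjusted p = 0.166), nor without uninjured library a or injured library a or b (0.0507, 0.0675 and 0.0544).

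Of the other rows called lower, KCNB2 and the kcnc pores were low throughout. KCNB2, on chromosome 24, is a separate row from kcnb2 on chromosome 2. It fell from 5.52 and 4.65 FPKM to 3.14 and 2.38 FPKM (log2 fold change −0.70, limma adjusted p = 0.0216). The row kcnc3a fell from 7.37 and 7.0 FPKM to 5.44 and 5.39 FPKM (log2 fold change −0.35, limma adjusted p = 0.0374). KCNA4 and KCNA5, A-type and delayed rectifier pores of the Kv1 family, were at 5.65 to 9.08 FPKM and 5.53 to 9.10 FPKM over the 6 libraries with no call. The silent subunit KCNG4 (2 of 2) was at 18.4 to 27.6 FPKM, also with no call. The beta subunit KCNAB1 (3 of 3) fell from 21.0 and 22.8 FPKM to 13.3 and 12.1 FPKM (log2 fold change −0.74, limma adjusted p = 0.00721). KCNH2 (1 of 2), the erg channel, fell from 17.7 and 15.5 FPKM to 9.16 and 12.2 FPKM (log2 fold change −0.60, limma adjusted p = 0.042), and its locus overlaps 1 other row. In KCNB2, kcnc3a, KCNAB1 (3 of 3) and KCNH2 (1 of 2), both uninjured libraries were above both injured ones, and these rows were named after their values were seen. Leaving out 1 library kept the call of KCNAB1 (3 of 3) each time and ended that of kcnc3a each time (limma adjusted p 0.0976 to 0.132). KCNB2 lost it without uninjured library a or b or injured library b (0.0963, 0.0588 and 0.0904), and KCNH2 (1 of 2) without uninjured library a or b or injured library a (0.163, 0.0995 and 0.132).

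KCNH5 (2 of 2), an ether-a-go-go channel, fell from 3.23 and 2.40 FPKM to 1.42 and 0.81 FPKM (log2 fold change −0.86 ± 0.20, limma adjusted p = 0.0259), and its call was lost in each fit without 1 library (limma adjusted p 0.0508 to 0.11). The kcnq rows, several of which carry the slow M current of neurons while KCNQ1 is known from heart and epithelia, summed to 18.3 and 23.8 FPKM before injury, to 17.5 and 18.3 after it, and to 18.1 and 18.7 with the knockdown. Their groups touched or overlapped, and kcnq5b was the only row of the 6 tested to be called.

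**Figure D3:**
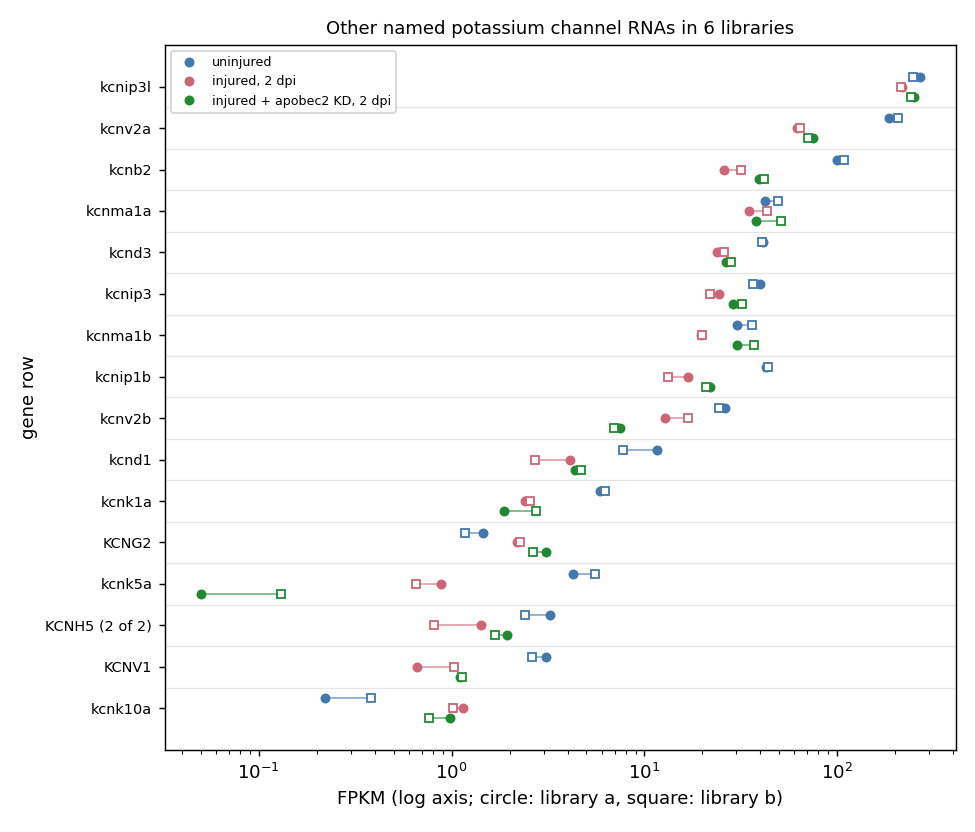
FPKM of the 16 other kcn rows named, on a log axis from the highest row to the lowest, with library a as a circle, library b as a square and the 3 groups in colours. Uninjured libraries lie to the right of both injured groups for kcnv2a, kcnb2 and kcnip1b, kcnip3l is the highest row, and kcnk5a reaches 0.05 FPKM in knockdown library a.

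Counts of partner genes of potassium handling are given beside the shares of all genes, of which 19.0% were lower after injury and 29.6% higher. Cotransporters were near those shares. Of the Na,K-ATPase subunits, which pump potassium into the cell, 6 of 11 tested were lower after injury (54.5%) and 2 were higher (18.2%, with 1 higher after quantile normalization or median of ratios scaling). The beta subunit gene atp1b4 fell from 85.0 and 78.8 FPKM to 7.25 and 11.5 FPKM (log2 fold change −3.03, limma adjusted p = 0.00155), and atp1b2b, a beta subunit known from mammalian glia as AMOG, from 216 and 219 FPKM to 90.6 and 96.4 FPKM (log2 fold change −1.21). By contrast atp1b1a rose from 21.3 and 21.7 FPKM to 73.2 and 72.2 FPKM (log2 fold change 1.71, limma adjusted p = 0.000877). Of 13 cation chloride cotransporters tested, 4 rose (30.8%) and 3 fell (23.1%). The neuronal potassium chloride exporter gene slc12a5 fell from 70.9 and 72.5 FPKM to 31.4 and 41.9 FPKM (log2 fold change −0.96, limma adjusted p = 0.0114), while slc12a4 rose by 1.31. The HCN channels, which pass sodium and potassium on hyperpolarization, had 4 of 7 lower (57.1%), led by hcn3 (85.0 and 92.4 FPKM to 19.9 and 22.9 FPKM, log2 fold change −2.00, limma adjusted p = 0.00107). The pump and HCN counts are too small to set against the 19.0% of all genes. How the calls of these partner genes fare without 1 library is not given here. The water channel gene aqp4, which in mammals shares the MG endfoot with KCNJ10, stood at 22.6 and 20.5 FPKM before injury, at 4.46 and 3.17 after it, and at 5.89 and 7.31 after it with the knockdown. Its fall after injury was 2.24 in log2 (limma adjusted p = 0.00157), while dag1, dmd, dtna and dtnba of its anchor were not called.

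Between knockdown and injured libraries few kcn rows passed the test. Of 72 rows tested, 2 were higher (2.78%), against 3.14% of the 16681 genes tested, and 1 was lower (1.39%), against 6.23%. The rows were kcnj14 and kcnma1b, higher, and kcnv2b, lower. The gene kcnj14 had 6.58 and 5.63 FPKM with the knockdown against 2.79 and 2.69 without it, a log2 fold change of 0.92 ± 0.12 (limma adjusted p = 0.0194), and its knockdown libraries were above all others. The gene kcnma1b, given above, was higher by 0.73 ± 0.14 in log2 (limma adjusted p = 0.0442), and its knockdown libraries overlapped the uninjured ones. The log2 fold change of kcnv2b was −0.93 ± 0.16 (limma adjusted p = 0.0358). Cone markers, with 6 of 7 lower in the same comparison, moved with it. Rod markers had 0 of 8 called, and kcnv2a differed by 0.21 in log2 with no call (limma adjusted p = 0.254). The part of cone RNA in the kcnv2b level was not tested. All 9 microglial markers tested were also lower in knockdown libraries. Quantile normalization gave 4 kcn rows higher and 1 lower, with 46.4% of all calls higher in place of 33.5%.

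All 3 knockdown calls were lost when any 1 library was left out. The count was then 0 in both directions, while the share of all genes called was 0.0779% to 0.204% higher and 0.839% to 1.39% lower. With a term for library kind, a or b, a setting chosen after seeing the data, kcnj14 kept its call (limma adjusted p = 0.0333) and those of kcnma1b (0.0591) and kcnv2b (0.0555) were lost. In the fits without 1 library the limma adjusted p of kcnj14 was 0.0882 to 0.123, that of kcnma1b 0.0884 to 0.183 and that of kcnv2b 0.0774 to 0.175. At an unadjusted p under 0.05, 13 kcn rows were higher (18.1%), against 13.2% of all genes, and 1 was lower (1.39%), against 17.4%. Both knockdown libraries were above both injured libraries in 36 of the 72 rows (50.0%), against 28.7% of all genes, and below both in 5 (6.94%), against 33.2%. The 36 rows include kcnb2, with 39.2 and 41.7 against 25.9 and 31.7 FPKM, and KCNJ4, with 7.27 and 8.12 against 5.0 and 6.42 FPKM, neither of which passed the test (limma adjusted p = 0.1 and 0.169). The KCNJ10 (1 of 2) libraries of these groups overlapped (limma adjusted p = 0.475). The median log2 difference was 0.19 over the kcn rows and −0.02 over all genes. This comparison uses the same injured libraries as the injury comparison, with the opposite sign. Its upward shares are therefore not independent of the fall after injury.

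The comparison of knockdown with uninjured libraries shares its groups with the other comparisons, so its values stand beside them and are no independent support. Of 75 kcn rows tested, 25 were lower (33.3%), against 13.9% of the 16424 genes tested, and 5 were higher (6.67%), against 22.9%. The lower rows included KCNJ10 (1 of 2) (log2 fold change −1.24 ± 0.13, limma adjusted p = 0.00376), kcnb2 (−1.35 ± 0.11, 0.0022), kcnv2a (−1.41 ± 0.11, 0.00214) and kcnk5a (−2.43 ± 0.15, 0.00146). The 5 higher rows were kcnj13, kcnj14, KCNJ15, KCNG2 and kcne4. The log2 fold change of kcnj13 was 1.22 ± 0.18 (limma adjusted p = 0.00866), and that of KCNJ15 was 0.72 ± 0.10 (limma adjusted p = 0.00749). Of the lower rows 4 (those named above for injury) passed the filter only through uninjured libraries, and of the higher rows KCNJ15 and kcne4 only through knockdown libraries, so their p-values are a description (limma adjusted p with no filter 0.0109 and 0.0224 for KCNJ15 and kcne4). The gene kcne4, an auxiliary subunit that dampens Kv channels in mammals, read 0 and 0.45 FPKM (uninjured), 0.83 and 1.98 FPKM (injured) and 2.00 and 2.41 FPKM (knockdown), and was named after its values were seen. Leaving out uninjured library a or b or knockdown library a or b gave 12, 11, 8 and 13 rows lower (10.7% to 17.3%) and 3, 4, 1 and 2 rows higher (1.33% to 5.33%), while 5.43% to 6.54% of all genes were lower and 10.1% to 13.1% higher. Of the 5 higher rows, kcnj14 was not called in any of these fits (limma adjusted p 0.0576 to 0.111), whereas kcnj13 lost its call without uninjured library a (0.0543) and KCNJ15 without knockdown library a (0.0526). KCNG2 lost its call without uninjured library b or knockdown library a or b (0.066, 0.0762 and 0.0518), and kcne4 without knockdown library a or b (0.0633 and 0.0698). Quantile normalization moved the median of all genes by −0.12 and gave 32 kcn rows lower and 5 higher, with 48.5% of all calls higher in place of 62.2%.

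**Figure D4:**
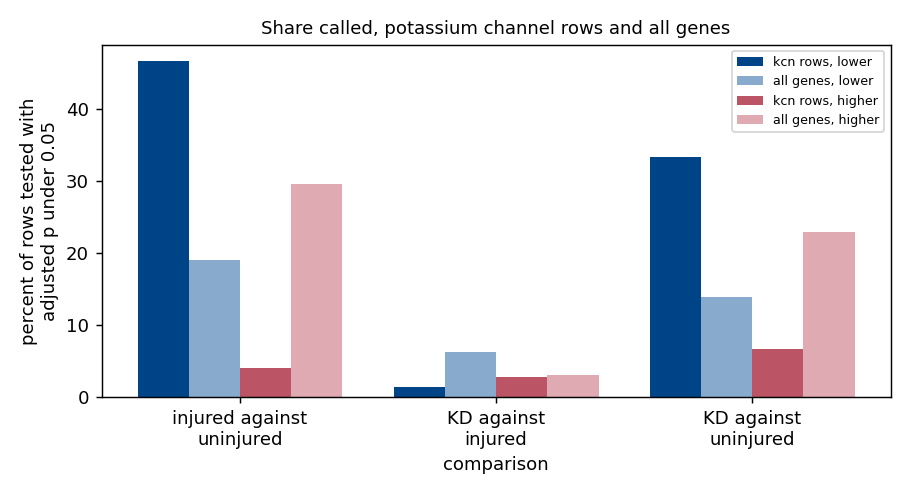
Percent of rows tested with an adjusted p under 0.05 in each comparison, as bars from 0, for the kcn rows (dark) and for all genes (light), lower in blue and higher in red. The kcn bars for lower exceed those of all genes in both comparisons with uninjured libraries (46.6% against 19.0%, and 33.3% against 13.9%), and between knockdown and injured libraries both kcn bars are under 3%.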

How the data were processed

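The authors deposited FPKM per gene and library, rounded to 0.01, in a table that lists each of 30689 gene rows 3 times, once per pair of groups. Submitters' processing notes name CASAVA, TopHat and Bowtie2 without version, and the genome build is not given in the sources used here, so loci are printed as the table has them. The authors' comparison columns (means, fold change, p and q) and 6 further per-library columns were not used. Depth cannot be read from FPKM, so no interval or floor is given.

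Rows of one symbol were summed, except that kcn rows stayed single. Groups were compared with limma 3.58.1 (R 4.3.3; lmFit, eBayes) on log2 of the deposited FPKM + 1, which understates the change of low genes, in the 4 libraries of the pair, for genes of at least 1 FPKM in 2 of them, with Benjamini-Hochberg adjustment over all genes tested and a threshold of 0.05. The steps were also run on simulated data with few changed genes and independent noise, to check the code. That run does not bear on the calls reported here. Tables were made in Python 3.11.15 (pandas 2.3.3, NumPy 2.4.6) and plots with Matplotlib 3.10.9.

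Named were every kcnj row described, the 8 other rows of highest mean, and of the other rows called without overlap up to 8 in each direction for injury and 5 for knockdown by log2 fold change. Rows outside this rule, and partner and marker genes out of their lists, are named as examples or where a short count is listed, after their values were seen. Members and lists were chosen with earlier results of these data known. Other settings tried were a smaller pseudocount (0.1), scaling by quantiles or by the median of ratios, a variance trend, all 3 groups in 1 fit, no filter, a filter of 5 FPKM, single rows and each library left out. A term for library kind a or b and the count without overlapping loci were chosen after seeing the data.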

Additional observations from a re-analysis of the deposited data

How the results depend on the processing

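Each group held 2 libraries. After injury, the number of rows called higher, 3 as reported, was 1 after quantile normalization, 0 with the filter of 5 FPKM, which left 33 rows, and 0 to 3 when 1 library was left out, and the number called lower, 34 as reported, was 17 to 20. Between knockdown and injured libraries, the number called higher, 2 as reported, was 1 with a pseudocount of 0.1, 4 after quantile normalization, 1 without a filter, 1 with the term for library kind and 0 in each fit without 1 library. The number called lower there, 1 as reported, was 0 with a pseudocount of 0.1, without a filter, with the term for library kind and in each fit without 1 library. Between knockdown and uninjured libraries, the filter of 5 FPKM, which left 34 rows, gave 1 higher and 15 lower, in place of 5 and 25, and leaving out 1 library gave 1 to 4 higher and 8 to 13 lower. No named call changed direction, but only scaling by quantiles or by the median of ratios could have reversed one. The groups of each named call did not overlap, so the other runs, left-out libraries included, had to keep its sign. Apart from left-out libraries, single calls were lost for kcnj14 after injury (limma adjusted p = 0.059 with a variance trend and 0.0592 with the term for library kind), for kcnk10a and KCNG2 after quantile normalization, and for kcnma1b and kcnv2b between knockdown and injured libraries (0.0555 to 0.0721). With the term for library kind, KCNJ6, KCNJ9 and kcnj11l were not called between knockdown and uninjured libraries (limma adjusted p 0.06 to 0.0614). Fits without 1 library leave a lone library that is assumed to vary like the others. Where no construction of the alternative shows the cause, the cause was not tested. Levels near 1 FPKM rest on few reads of unknown number. No paired analysis was possible because the columns carry no replicate numbers that match the labels, and the term for library kind rests on the columns' own index, which no label ties to pairs.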
